A study of Mus musculus with 77 samples.

Results

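Tbx1, Dlx1, Six4, Esx1 and Ctcfl are 5 genes for nuclear regulators, of 19938 genes measured, that were picked by name because their levels in germ cell polysomes of the mouse testis changed between 12h and 6d after an injection of retinoic acid (RA). Tbx1 encodes a T-box transcription factor best known from development of the pharynx and heart outflow. Dlx1, Six4 and Esx1 encode homeodomain proteins of the distal-less, sine oculis and paired-like classes, and Esx1 lies on the X chromosome and is known from placenta and male germ cells. Ctcfl, also called BORIS, encodes a testis paralogue of the insulator protein CTCF, with zinc fingers and neither a homeodomain nor a T-box. The values that chose these genes are those of Stra8 IP RNA against time 0, so in that fraction they are described below and not tested.

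All mice carried RiboTag, which lets Cre recombinase put an epitope tag on ribosomes. Stra8-cre and Ngn3-cre tag ribosomes of germ cells and Amh-cre those of Sertoli cells. Immunoprecipitated (IP) RNA is the RNA recovered with the tagged ribosomes, and total RNA comes from the whole testis. All mice, the time 0 controls included, received BDAD, which blocks RA synthesis, on 9 days in a row, and were then killed (time 0) or injected with RA. Stra8-cre:RiboTag and Amh-cre:RiboTag mice were FVB/N and Ngn3-cre:RiboTag mice C57BL/6, so line and strain cannot be told apart for Ngn3. The age of the mice, pooling of testes and separate animals behind replicates are not stated in the sources used here, and no vehicle injection was among the groups used. Time after RA, time since the last BDAD dose and age therefore cannot be told apart. There were 16 arrays of Stra8 IP RNA, 23 of Stra8 total, 16 of Amh IP, 14 of Amh total, 4 of Ngn3 IP and 4 of Ngn3 total, in 35 groups. For the Stra8 and Amh lines the labelled times were 0, 4h, 12h and 24h on the first day and 48h, 4d, 6d and 8d later, and for the Ngn3 line 0 and 4h. A 4h group of total RNA from the Amh line is not analysed here. Most groups had 2 arrays, but Stra8 total RNA had 3 at 4h and 4 each at 0, 24h and 48h.

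RA is made in the testis and starts the differentiation of spermatogonia, and a later exposure of the same germ cells accompanies entry into meiosis. Undifferentiated spermatogonia express Gfra1 and Zbtb16, differentiating ones gain Kit and Stra8, and early spermatocytes express the meiotic cohesins Rec8 and Smc1b. When RA synthesis is blocked, germ cells are held as undifferentiated spermatogonia, and RA then releases them in step. RA acts through nuclear receptors that bind repeats of the half-site AGGTCA.

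The 250 bases before the outermost listed start of Tbx1, Dlx1, Six4 and Esx1 are shown because these genes moved after RA and because 1 of them holds the half-site. They are from the RefSeq promoter table of GRCm38.p6, 5′ to 3′ on the gene's strand, at chr16:18590672-18590921 (minus strand), chr2:71529195-71529444 (plus strand), chr12:73113426-73113675 (minus strand) and chrX:137120327-137120576 (minus strand). Capitals mark the half-site, here read as its reverse complement.
Tbx1: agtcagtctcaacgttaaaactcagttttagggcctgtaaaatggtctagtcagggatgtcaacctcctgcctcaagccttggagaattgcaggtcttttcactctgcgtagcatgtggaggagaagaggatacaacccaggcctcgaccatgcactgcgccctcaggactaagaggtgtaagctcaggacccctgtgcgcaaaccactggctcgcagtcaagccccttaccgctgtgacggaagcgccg
Dlx1: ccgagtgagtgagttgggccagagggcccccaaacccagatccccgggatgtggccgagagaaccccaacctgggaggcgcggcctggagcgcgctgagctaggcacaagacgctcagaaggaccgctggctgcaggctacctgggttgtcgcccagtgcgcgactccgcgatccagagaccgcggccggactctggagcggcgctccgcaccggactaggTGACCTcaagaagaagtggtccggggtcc
Six4: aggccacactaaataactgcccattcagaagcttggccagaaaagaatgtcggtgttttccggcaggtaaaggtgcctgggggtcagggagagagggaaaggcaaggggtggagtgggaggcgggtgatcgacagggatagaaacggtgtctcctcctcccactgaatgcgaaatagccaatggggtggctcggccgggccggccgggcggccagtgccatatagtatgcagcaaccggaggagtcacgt
Esx1: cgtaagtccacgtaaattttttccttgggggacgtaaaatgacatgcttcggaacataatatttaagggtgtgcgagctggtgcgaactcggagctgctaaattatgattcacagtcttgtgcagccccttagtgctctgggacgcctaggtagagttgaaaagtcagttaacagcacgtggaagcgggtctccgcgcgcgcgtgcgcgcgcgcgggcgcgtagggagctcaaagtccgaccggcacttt

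Of the 5 genes, 4 had promoters in the table, 6 in all with 2 starts each for Tbx1 and Six4. On either strand of these 250 bases, AGGTCA occurred once, in Dlx1 at position -29 from the start. It occurs in 14% of the 32851 promoters of the table. Neither pair of half-sites with the spacings RA receptors are known for, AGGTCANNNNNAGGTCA and AGGTCANNAGGTCA, was found in the 6 windows, and each occurs in 0.00913% of all promoters. Each of the shown stretches holds more CpG dinucleotides than the median promoter, which has 6: Esx1 holds 24, Dlx1 22, Six4 13 and Tbx1 10. These matches describe letters and not sites.

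Values are log2 of the deposited RMA intensity. Intensities were not compared between genes, since each gene has its own probe set (1 for each of the 5). A gene was called changed when limma's adjusted p, over all 19938 genes, was under 0.05 and the difference was at least 2-fold, a log2 difference of 1. Errors are standard errors (SE) of that fit. Over a course of times, limma's F test was used and the value given is the largest difference from time 0.

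In the list means, each fraction was high in its labelled cell type. The mean of 9 germ cell markers, among them Ddx4 and Dazl, lay between 11.57 and 12.00 on Stra8 IP arrays, between 11.93 and 12.03 on Ngn3 IP arrays and between 7.81 and 9.45 on Amh IP arrays. The mean of the 9 Sertoli markers measured of 10 listed, among them Sox9 and Amh, lay between 12.33 and 12.54 on Amh IP arrays and between 8.60 and 10.81 on Stra8 IP arrays. No marker is at 0 on these arrays, whose lowest log2 value was between 4.65 and 4.72. Some arrays stood apart from their labelled time. Stra8 total 4h replicates 2 and 3 correlated with their own group at -0.0107 and 0.096 and with Stra8 total 4d at 0.516 and 0.531, over genes centred on the line and fraction. Replicate 1 of that group correlated with its own group at -0.359 and with Stra8 total 24h at 0.701, and Stra8 total 24h replicates 1 and 2 with their own at 0.0239 and -0.0099 and with 48h at 0.477 and 0.547. Stra8 IP 24h replicate 1 correlated with its own group at 0.434 and with Stra8 IP 48h at 0.557. Cyp26a1, which RA induces within hours, was at 6.27 and 6.54 on Stra8 total 4h replicates 2 and 3, at 7.43 on replicate 1 and at 9.28 and 9.49 in Stra8 IP RNA at 4h. Conversely, Cyp26a1 was at 8.71 and 8.75 on the Amh total arrays labelled 4d and at 8.28 and 8.18 on the Amh IP arrays labelled 4d, against 6.66 and 6.78 on the Amh IP arrays labelled 4h. Cyp26a1 was high on some later arrays too. In Amh IP RNA it was at 6.70 and 8.49 at 6d and at 8.22 and 9.93 at 8d. Rarb went from 6.97 and 7.10 at time 0 to 9.28 and 9.21 at 4h in Stra8 IP RNA. It was at 8.88 and 8.82 on the Amh total arrays labelled 4d and at 8.58 and 8.56 on the Amh IP arrays labelled 4d. On the Amh IP arrays labelled 4h Rarb was at 7.18 and 7.16, and at 8d it was at 6.93 and 6.98. Here the labels were kept. Calls of the 5 genes in Stra8 total RNA at 4h and 24h are given with and without such arrays. So are Stra8 IP against total RNA at 4h and the difference of courses between the lines. The courses within a line and the Amh average of IP against total RNA include these arrays. Stra8 IP RNA at 24h is given by array.

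**Figure D1:**
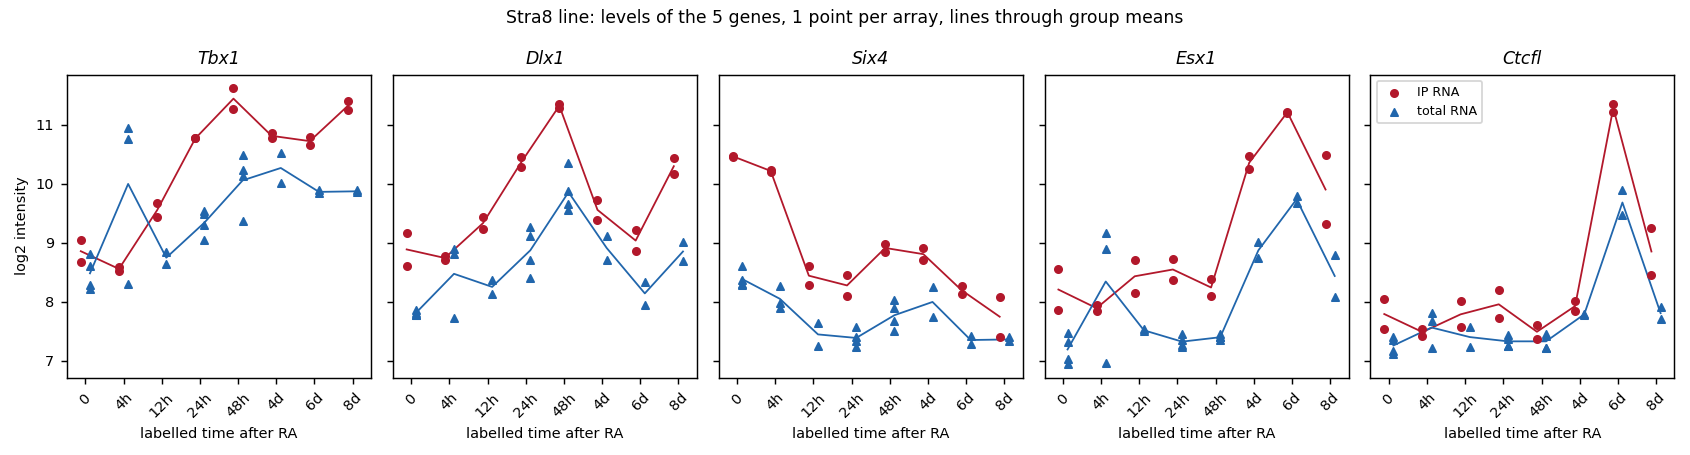
Levels of the 5 genes in the Stra8 line, as log2 intensity (vertical axis, shared) by labelled time after RA (horizontal axis, not to scale), with 1 point per array, red circles for IP RNA, blue triangles for total RNA and lines through group means. Dlx1 is highest at 48h, Six4 is low from 12h, and Esx1 and Ctcfl are highest at 6d, while the 4h total RNA arrays of Tbx1 spread from 8.30 to 10.94.

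Dlx1 was highest at 48h, low at 6d and high again at 8d. In Stra8 IP RNA it was at 9.17 and 8.61 at time 0, at 8.71 and 8.78 at 4h, at 9.44 and 9.23 at 12h, at 10.45 and 10.28 at 24h and at 11.36 and 11.29 at 48h. It was then at 9.73 and 9.39 at 4d, at 8.86 and 9.22 at 6d and at 10.44 and 10.16 at 8d. Both 48h arrays lay above all others of the series, the 6d arrays lay within the range of time 0 or close to it, and the 8d arrays were high again. As a description, the difference from time 0 was 2.43 ± 0.27 (SE, n = 2 and 2) at 48h, 0.14 ± 0.27 at 6d and 1.41 ± 0.27 at 8d.

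Total RNA, which did not enter the choice of genes, had the same maximum. Dlx1 was at 7.78, 7.87, 7.82 and 7.78 in Stra8 total RNA at time 0, at 9.11, 9.27, 8.71 and 8.41 at 24h, and at 9.66, 9.88, 9.55 and 10.35 at 48h. No array at 24h or 48h overlapped time 0, and Dlx1 rose by 1.06 ± 0.19 (adjusted p = 0.000139) at 24h and 2.04 ± 0.19, or 4.12-fold, at 48h (adjusted p = 6.88e-10). Without replicate 1 or 2 at 24h the first of these lay below 2-fold, at 0.98 and 0.93, and without both it was 0.75 (adjusted p = 0.00548). At 6d the arrays were at 7.95 and 8.34 and the difference was 0.33 ± 0.24 (adjusted p = 0.288), and at 8d they were at 9.01 and 8.70, a rise of 1.04 ± 0.24 (adjusted p = 0.000389; 0.89 without replicate 1 at 8d).

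In whole testes of the Amh line, Dlx1 was at 7.95 and 7.86 at time 0, at 9.83 and 9.41 at 24h, at 10.37 and 10.35 at 48h, at 7.95 and 7.91 on the arrays labelled 4d, at 7.85 and 7.97 at 6d and at 9.51 and 9.31 at 8d. It rose 5.48-fold at 48h (2.46 ± 0.27, adjusted p = 1.95e-08) and 2.83-fold at 8d (1.50 ± 0.27, adjusted p = 1.68e-05), with a difference of 0.01 ± 0.27 at 6d (adjusted p = 0.992). Both lines thus had a low value at 6d between high values at 48h and 8d, and by its labels the Amh line was low at 4d too (0.03 ± 0.27, adjusted p = 0.973). From 6d to 8d the difference was 0.71 in Stra8 total RNA, 1.50 in Amh total RNA and 1.27 in Stra8 IP RNA, given as descriptions.

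Tbx1 was high from 24h on and stayed high in Stra8 IP RNA and in total RNA, except on the Amh total arrays labelled 4d. In Stra8 IP RNA it was at 9.05 and 8.67 at time 0, at 8.60 and 8.52 at 4h, at 9.67 and 9.44 at 12h, at 10.77 on both arrays at 24h and at 11.62 and 11.27 at 48h. Later it was at 10.77 and 10.86 at 4d, at 10.66 and 10.79 at 6d and at 11.25 and 11.40 at 8d. All arrays from 12h on lay above those of time 0, and 48h and 8d, the highest pair of times, overlapped each other. The described difference from time 0 was largest at 48h, 2.59 ± 0.36.

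In Stra8 total RNA Tbx1 was at 8.29, 8.61, 8.82 and 8.22 at time 0, at 9.54, 9.49, 9.30 and 9.05 at 24h, at 10.24, 10.14, 9.37 and 10.49 at 48h and at 10.52 and 10.02 at 4d. It rose by 1.57 ± 0.26 at 48h (adjusted p = 5.05e-05), 1.78 ± 0.31 at 4d (5.89e-05), 1.38 ± 0.31 at 6d (0.000456) and 1.39 ± 0.31 at 8d (0.000384). In Amh total RNA it was at 8.31 and 8.29 at time 0, at 10.50 and 10.53 at 48h, at 10.53 and 10.26 at 6d and at 10.07 and 10.19 at 8d. On the Amh total arrays labelled 4d it was at 8.53 and 8.42, a difference of 0.18 ± 0.36 (limma's adjusted p = 0.844). At 24h in the Stra8 line the difference was 0.86 ± 0.26 (adjusted p = 0.0199), under 2-fold, and 0.69 (0.0653) without replicates 1 and 2 at 24h. In the Amh line the rise was 4.64-fold at 48h (2.22 ± 0.36, adjusted p = 5.72e-05), 4.28-fold at 6d (2.10 ± 0.36, 1.72e-05) and 3.56-fold at 8d (1.83 ± 0.36, 6.64e-05). At 24h the arrays were at 10.06 and 9.79 and the rise of 1.63 ± 0.36 (adjusted p = 0.0158) was lost without any one of its 4 arrays (adjusted p from 0.116 to 0.346).

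The value of Tbx1 in Stra8 total RNA at 4h rests on the doubtful arrays. Replicate 1 was at 8.30, within the range of time 0, and replicates 2 and 3 were at 10.76 and 10.94. With all 3 the difference from time 0 was 1.51 ± 0.28 (adjusted p = 0.000138), without replicate 1 it was 2.36 (2.48e-14), and without replicates 2 and 3 it was -0.18 (adjusted p = 0.565). The last of these sets 1 array, which itself stood apart, against time 0 and assumes that it varies like the other groups. Esx1 behaved alike, at 6.97 against 8.90 and 9.17, with a difference of 1.15 ± 0.25 (adjusted p = 0.000898) that became 1.84 without replicate 1 and -0.23 (adjusted p = 0.487) without replicates 2 and 3, and that lost its call without replicate 2 (0.87) or replicate 3 (0.74) alone. Fitted with the compared groups alone, neither was called (adjusted p = 0.247 for Tbx1 and 0.292 for Esx1).

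Six4 was the gene that was lower after RA. Its Stra8 IP level was at 10.48 and 10.46 at time 0, at 10.24 and 10.20 at 4h, at 8.61 and 8.28 at 12h and at 8.46 and 8.10 at 24h. At later times it was at 8.84 and 8.99 at 48h, at 8.71 and 8.91 at 4d, at 8.13 and 8.27 at 6d and at 7.41 and 8.09 at 8d. Every array from 12h on lay below every array of time 0 and 4h. The described difference from time 0 was -0.25 ± 0.19 at 4h and -2.03 ± 0.19 at 12h.

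Amh total RNA, from another line, showed the same drop. Six4 was at 8.92 and 9.03 at time 0, at 7.26 and 7.43 at 12h, at 7.62 and 7.65 at 24h, at 7.36 and 7.58 at 48h and at 6.97 and 6.68 at 8d. It fell by 1.63 ± 0.19 on the log2 scale at 12h (3.09-fold, adjusted p = 7.09e-08), by 1.34 ± 0.19 at 24h (6.27e-05), by 1.50 ± 0.19 at 48h (5.53e-07) and by 2.15 ± 0.19 at 8d (4.44-fold, 1.11e-12). At 6d its arrays were at 8.10 and 7.43 and it fell by 1.21 ± 0.19 (4.51e-06; by 0.87, below 2-fold, without replicate 2). On the arrays labelled 4d, whose Cyp26a1 was high, it was at 8.43 and 8.35, a difference of -0.58 ± 0.19 (adjusted p = 0.0542).

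In Stra8 total RNA the change of Six4 was smaller and lay at the fold minimum. It was at 8.61, 8.29, 8.37 and 8.30 at time 0, at 7.65 and 7.25 at 12h, at 7.41, 7.57, 7.24 and 7.34 at 24h, at 7.42 and 7.29 at 6d and at 7.40 and 7.33 at 8d. The arrays of these times did not overlap those of time 0. Six4 fell by 1.01 ± 0.14 at 24h (adjusted p = 1.13e-06), by 1.04 ± 0.17 at 6d (2.53e-06) and by 1.03 ± 0.17 at 8d (2.19e-06), and the difference at 12h was -0.94 ± 0.17 (0.000158), under 2-fold. Without replicate 1 of time 0 the values at 24h, 6d and 8d became -0.93, -0.96 and -0.95, all under 2-fold with adjusted p from 2.17e-05 to 3.02e-05. Without replicates 1 and 2 at 24h the value at 24h was -1.11 (8.06e-07). At 48h and 4d the Stra8 total arrays were closer to time 0, at 7.68, 7.89, 8.03 and 7.50 and at 8.25 and 7.75, with differences of -0.62 ± 0.14 (adjusted p = 0.00236) and -0.39 ± 0.17 (0.103).

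Esx1 was higher from 4d on and highest at 6d. In Stra8 IP RNA it was at 8.55 and 7.87 at time 0 and between 7.85 and 8.73 from 4h to 48h, then at 10.47 and 10.25 at 4d, at 11.21 and 11.22 at 6d and at 9.32 and 10.49 at 8d. Both 6d arrays lay above all other arrays of the series, and the 8d arrays differed from each other by more than the arrays of any other time in this fraction. The described differences were 2.15 ± 0.33 at 4d and 3.00 ± 0.33 at 6d.

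In Stra8 total RNA Esx1 was at 7.04, 7.32, 7.47 and 6.95 at time 0, at 9.01 and 8.74 at 4d, at 9.80 and 9.68 at 6d and at 8.09 and 8.79 at 8d. It rose 3.21-fold at 4d (1.68 ± 0.28, adjusted p = 2.82e-05), 5.83-fold at 6d (2.54 ± 0.28, 6.59e-10) and 2.37-fold at 8d (1.25 ± 0.28, 0.000391; 0.90 and adjusted p = 0.0601 without replicate 2 at 8d). In Amh total RNA it was at 7.18 and 7.21 at time 0, at 7.73 and 7.74 on the arrays labelled 4d, at 9.99 and 9.70 at 6d and at 8.22 and 7.70 at 8d. The rise at 6d was 6.28-fold (2.65 ± 0.33, adjusted p = 2.41e-08), and the difference at 8d was 0.76 ± 0.33 (adjusted p = 0.0677).

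Ctcfl had the narrowest time window. In Stra8 IP RNA it was at 8.05 and 7.54 at time 0 and between 7.38 and 8.20 from 4h to 4d, and then at 11.35 and 11.22 at 6d and at 8.46 and 9.25 at 8d. Both 6d arrays lay above all other arrays of the series, the nearest of which was an array of Stra8 total RNA at 6d, at 9.89. The described difference from time 0 was 3.49 ± 0.18 at 6d and 1.06 ± 0.18 at 8d.

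In Stra8 total RNA Ctcfl was at 7.17, 7.41, 7.36 and 7.11 at time 0, at 7.78 and 7.80 at 4d, at 9.89 and 9.48 at 6d and at 7.71 and 7.91 at 8d. It rose 5.37-fold at 6d (2.42 ± 0.15, adjusted p = 7.36e-17), with differences under 2-fold at 4d (0.53 ± 0.15, adjusted p = 0.0122) and 8d (0.55 ± 0.15, 0.00414). In Amh total RNA it was at 7.21 and 7.15 at time 0, at 9.79 and 9.75 at 6d and at 7.53 and 7.57 at 8d, a rise of 6.03-fold at 6d (2.59 ± 0.18, adjusted p = 3.18e-15) and a difference of 0.37 ± 0.18 at 8d (adjusted p = 0.109). From 6d to 8d the described difference was -1.87 in Stra8 total RNA, -2.22 in Amh total RNA and -2.43 in Stra8 IP RNA.

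**Figure D2:**
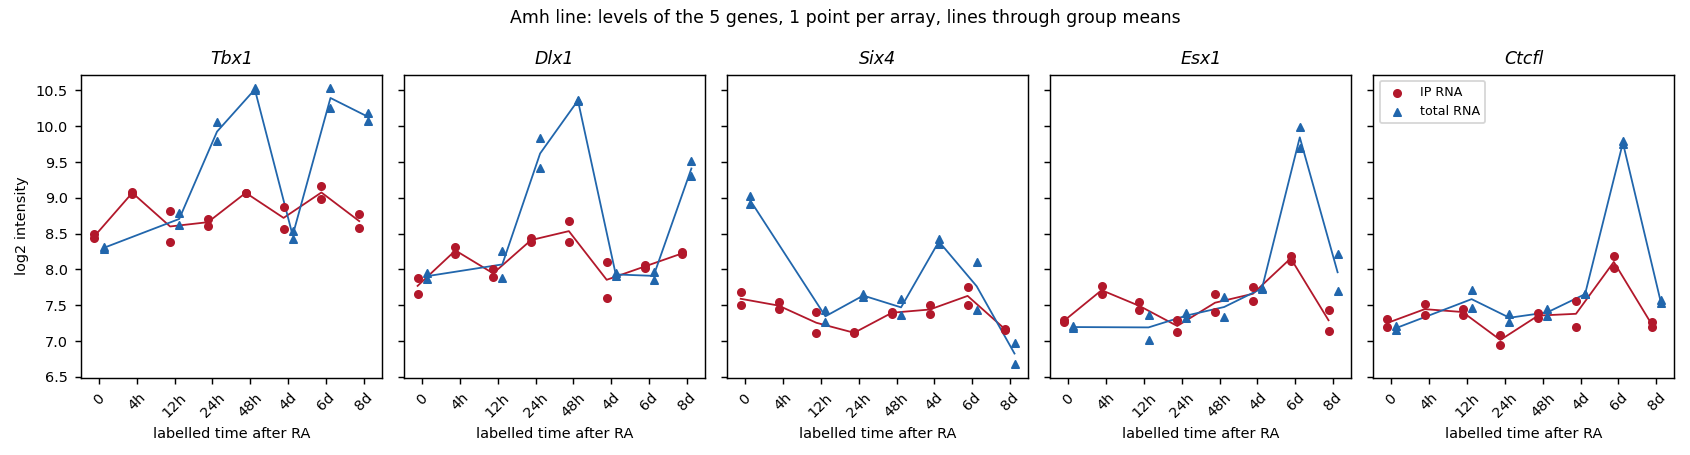
Levels of the 5 genes in the Amh line, as log2 intensity (vertical axis, shared) by labelled time after RA (horizontal axis, not to scale), with 1 point per array, red circles for Sertoli cell IP RNA, blue triangles for whole-testis total RNA and lines through group means. Total RNA of Dlx1 is highest at 48h and that of Esx1 and Ctcfl at 6d, while the group means of IP RNA differ from time 0 by at most 0.88 (Esx1 at 6d).

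Over whole courses, all 5 genes were called in Stra8 total RNA, 4 higher and Six4 lower, where 6.9% of all genes were called. All 5 were called with the same directions in Amh total RNA, where 7.66% were called. The adjusted p of the course lay between 1.6e-16 (Ctcfl) and 1.42e-06 (Tbx1) in the Stra8 line and between 1.57e-16 (Ctcfl) and 5.73e-08 (Tbx1) in the Amh line. The labels do not say whether total and IP RNA of the Stra8 line came from the same testes. At single times, the 5 genes are to be read beside the share of all genes called. In Stra8 total RNA that share was 0.386% at 4h (2 of the 5 called), 0.461% at 12h (0 of 5, with 1 at an unadjusted p under 0.05), 0.301% at 24h (2 of 5), 0.246% at 48h (2 of 5), 0.988% at 4d (3 of 5), 3.9% at 6d (4 of 5) and 4.86% at 8d (4 of 5). In Amh total RNA it was 0.888% at 12h (1 of 5), 0.145% at 24h (3 of 5), 0.592% at 48h (3 of 5), 0.552% at 4d (0 of 5, with 2 at an unadjusted p under 0.05), 3.05% at 6d (4 of 5) and 5.8% at 8d (3 of 5). Dlx1 was also called in Stra8 total RNA at 4d, at 9.12 and 8.71 (1.10 ± 0.24, adjusted p = 0.000737; 0.89 and 0.0663 without replicate 1 at 4d), and in Amh total RNA at 24h (1.71 ± 0.27, 0.000252). In whole-testis RNA, more cells of a type and more RNA per cell cannot be told apart.

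The cell type markers moved in the same samples. In total RNA the mean of the 9 germ cell markers went from 10.23 at time 0 to 11.11 at 6d and 11.14 at 8d in the Stra8 line, and from 10.61 to 11.07 and 11.30 in the Amh line. The mean of 8 meiotic entry markers, among them Rec8 and Smc1b, went from 8.26 to 10.67 at 6d and 11.01 at 8d in the Stra8 line, and from 8.59 to 10.48 and 11.39 in the Amh line. The mean of 6 markers of differentiating spermatogonia, among them Kit and Stra8, went from 8.59 at time 0 to 10.11 at 6d and 9.34 at 8d in Stra8 total RNA, from 8.69 to 9.97 and 9.61 in Amh total RNA and from 9.86 to 11.19 and 10.71 in Stra8 IP RNA. The mean of these 6 markers was already higher at 12h and 48h. It was 9.41 and 9.49 in Stra8 total RNA, 9.71 and 9.85 in Amh total RNA and 10.84 and 10.98 in Stra8 IP RNA. At both times Esx1 and Ctcfl were not called in total RNA, and at 48h Tbx1 and Dlx1 were called. From 6d to 8d, Esx1, Ctcfl and the mean of these 6 markers were lower, and the meiotic mean was higher. This did not hold for each meiotic marker, since Rec8 was lower at 8d than at 6d in Stra8 IP RNA, as given below. The mean of 10 markers of undifferentiated spermatogonia, among them Gfra1 and Zbtb16, went from 9.29 at time 0 to 9.03 at 12h and 8.43 at 8d in Amh total RNA and from 10.70 to 10.14 and 9.24 in Stra8 IP RNA, while Six4 was lower. The part of these cell types in the changes of the 5 genes was not tested.

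**Figure D3:**
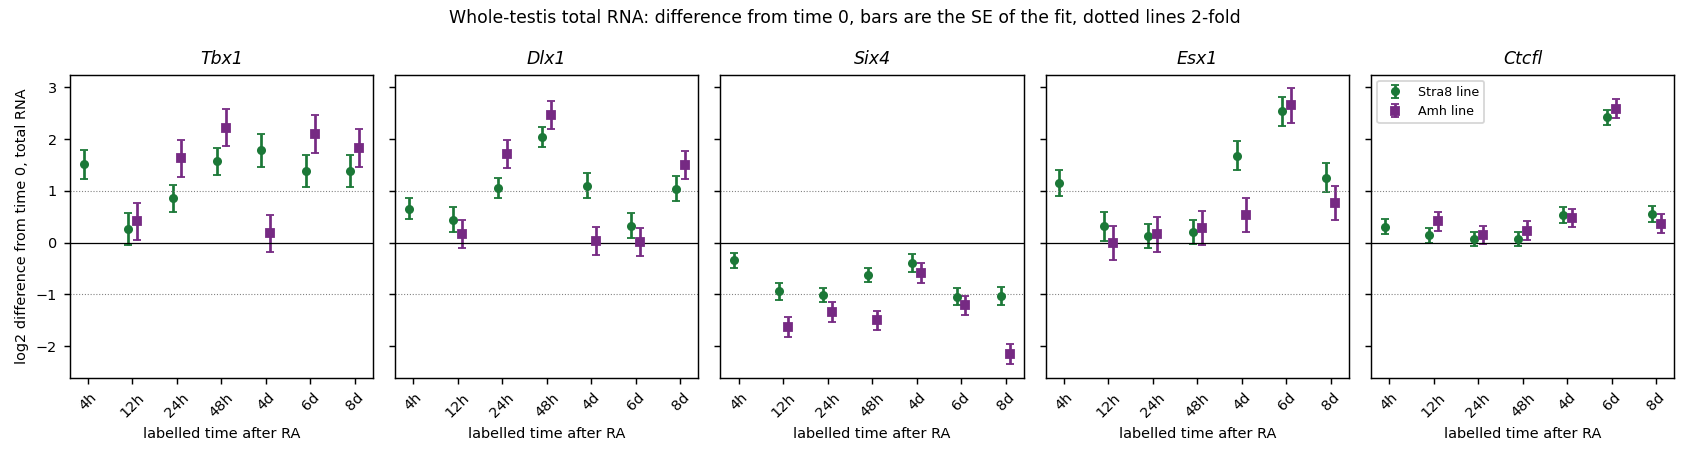
Difference from time 0 in whole-testis total RNA on the log2 scale (vertical axis) by labelled time after RA (horizontal axis, not to scale), for the Stra8 line (green circles) and the Amh line (purple squares), with bars of 1 SE of the fit and dotted lines at 2-fold. Both lines have Dlx1 highest at 48h (2.04 and 2.46), Ctcfl at 6d (2.42 and 2.59) and Six4 below 0 at every time, and they lie apart for Tbx1 at 4d (1.78 and 0.18).

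The courses of the Stra8 and Amh whole testes were set against each other over their 6 shared times. Differences were called for 3 of the 5 genes, with 2.54% of all genes called: Tbx1 (1.61 ± 0.48 higher in the Stra8 line at 4d, adjusted p = 0.00362), Dlx1 (1.08 ± 0.36 at 4d, 0.00471) and Six4 (1.12 ± 0.26 at 8d, 0.00442). For Esx1 the largest difference was 1.14 ± 0.43 at 4d (adjusted p = 0.17) and for Ctcfl -0.26 ± 0.24 at 12h (0.694). The values of Tbx1 and Dlx1 rest on the Amh total arrays labelled 4d, which held Tbx1 at 8.53 and 8.42 and Dlx1 at 7.95 and 7.91. When the Amh arrays of both labels, 4h and 4d, were left out, 4d no longer entered, and the largest differences were those at 24h, -0.77 for Tbx1 (adjusted p = 0.614) and -0.65 for Dlx1 (0.154), and only Six4 of the 5 was called (1.12, 0.0111). That of Dlx1 also lost its call without Stra8 total 4d replicate 1 (0.87). The call of Six4 was lost with quantile normalization (0.93) and without Amh total 8d replicate 2 (0.97), which leaves the difference under 2-fold.

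Sertoli cell polysomes showed none of these courses at 2-fold. In Amh IP RNA 0 of the 5 genes were called by limma, where 7.62% of all genes were, and 1 had an unadjusted p under 0.05. That gene was Ctcfl, at 7.19 and 7.31 at time 0, 8.02 and 8.19 at 6d and 7.20 and 7.27 at 8d, whose difference at 6d was 0.85 ± 0.18 (adjusted p for the course 0.000161), under 2-fold. Esx1 was at 7.29 and 7.27 at time 0 and at 8.19 and 8.12 at 6d, a difference of 0.88 ± 0.33 (adjusted p for the course 0.167). The mean of the germ cell markers in Amh IP RNA was 8.57 at time 0 and 8.96 at 6d, and that of the meiotic markers was 7.66 and 8.83. The part of germ cell RNA in the Ctcfl and Esx1 values of this fraction was not tested. The largest differences of Tbx1, Dlx1 and Six4 were 0.61 ± 0.36, 0.76 ± 0.27 and -0.47 ± 0.19, with adjusted p of 0.596, 0.122 and 0.127. Six4 was already low in this fraction at time 0, at 7.50 and 7.68, beside 8.92 and 9.03 in Amh total RNA. After its fall, Amh total RNA held it at 7.26 and 7.43 at 12h and at 6.97 and 6.68 at 8d. A 2-fold fall of Six4 therefore had little room to appear in Amh IP RNA.

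**Figure D4:**
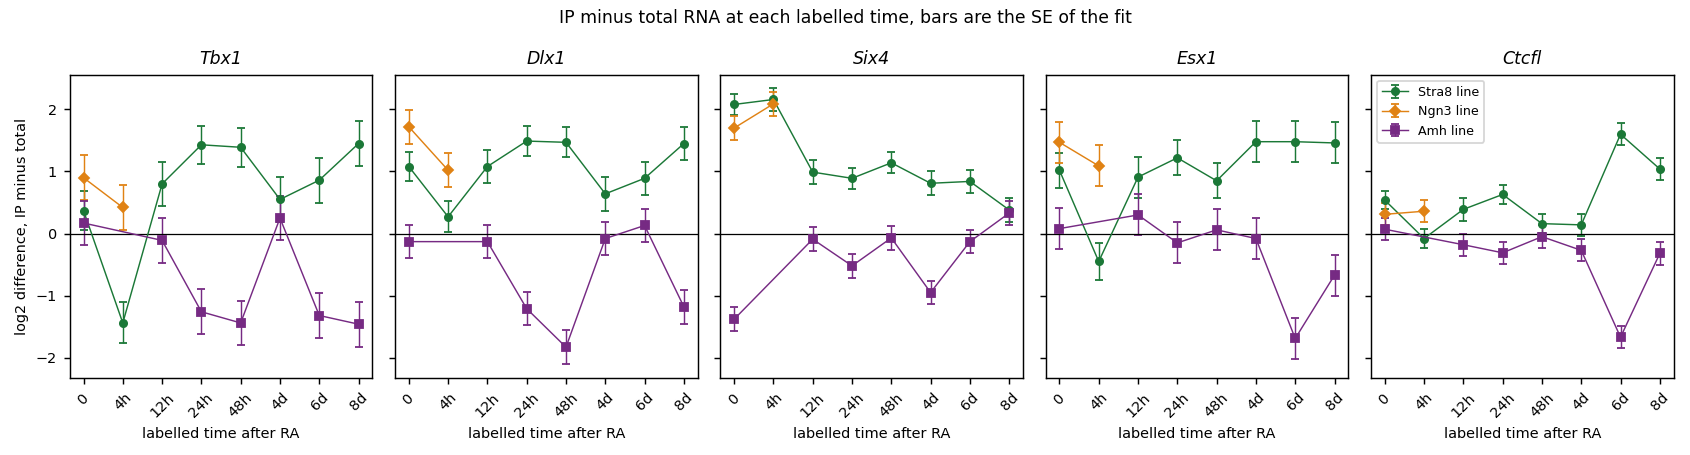
IP minus total RNA on the log2 scale (vertical axis) at each labelled time after RA (horizontal axis, not to scale), for the Stra8 line (green circles), the Ngn3 line (orange diamonds) and the Amh line (purple squares), with bars of 1 SE of the fit. In Ngn3 all 5 genes lie above 0 at both times, in the Stra8 line Six4 goes from 2.08 at time 0 to 0.38 at 8d, and in the Amh line Ctcfl reaches -1.67 at 6d, when its total RNA is high.

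IP and total RNA were compared in each line. Six4 in the Ngn3 line was at 10.66 and 11.39 in IP RNA and 9.25 and 9.41 in total RNA at time 0, and at 10.85 and 10.84 against 8.80 and 8.71 at 4h. Over both times the IP arrays of Six4 exceeded all total arrays, by 1.90 ± 0.14 (3.72-fold, adjusted p = 6.16e-17). Dlx1 (1.37 ± 0.19, 2.29e-08) and Esx1 (1.28 ± 0.23, 4.1e-06) were also called, so that 3 of the 5 were called where 12.9% of all genes were. Tbx1 (0.66 ± 0.26, adjusted p = 0.0253) and Ctcfl (0.34 ± 0.13, 0.02) lay under 2-fold.

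In the Amh line, IP minus total RNA averaged over times was below 0 for all 5 genes, from -0.74 ± 0.14 (Tbx1, adjusted p = 5.11e-06) to -0.31 ± 0.12 (Esx1, 0.0237). None reached 2-fold, so limma called 0 of 5 where 5.04% of all genes were called, and all 5 had an unadjusted p under 0.05. The difference varied with time: for Six4 it was -1.38 ± 0.19 at time 0 and 0.33 ± 0.19 at 8d, for Dlx1 -0.13 ± 0.27 at time 0 and -1.83 ± 0.27 at 48h, and for Esx1 0.08 ± 0.33 at time 0 and -1.69 ± 0.33 at 6d. These single-time values are descriptions.

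In the Stra8 line, IP and total RNA were compared at 4h and 8d, times that did not enter the choice of genes. At 8d, 4 of the 5 genes were called higher in IP RNA, where 9.3% of all genes were called: Esx1 (1.46 ± 0.33, adjusted p = 0.000213), Tbx1 (1.45 ± 0.36, 0.000896), Dlx1 (1.45 ± 0.27, 1.86e-05) and Ctcfl (1.04 ± 0.18, 3.74e-06). Six4 differed by 0.38 ± 0.19 (adjusted p = 0.114). Without Stra8 IP 8d replicate 2 the values of Esx1 and Ctcfl were 0.88 (adjusted p = 0.065) and 0.65 (0.00818), and without Stra8 total 8d replicate 1 that of Ctcfl was 0.94 (0.000526), so those calls rest on single arrays. At 4h, 2 of 5 were called, where 9.86% of all genes were. Six4 was higher in IP RNA by 2.16 ± 0.18 (adjusted p = 1.53e-14; 2.09 without total replicate 1 and 2.32 without total replicates 2 and 3). For Tbx1 the difference was -1.44 ± 0.33 (0.000275), lower in IP RNA, and its value became -2.29 (3.79e-13) without total replicate 1, 0.25 (adjusted p = 0.408) without replicates 2 and 3, which leaves 1 total array, and -0.97 (0.0074) with the replicate number as a block.

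At 4h after RA in the Ngn3 line, limma called 0 of the 5 genes in IP RNA, where 0.311% of all genes were called, and 2 had an unadjusted p under 0.05. Dlx1 was at 10.55 and 9.49 at time 0 and at 9.03 and 9.02 at 4h, a difference of -0.99 ± 0.27 (adjusted p = 0.0366) that just missed 2-fold. Tbx1 differed by -0.76 ± 0.36 (adjusted p = 0.49). In Ngn3 total RNA 0 of 5 were called, where 0.301% of all genes were, with 1 at an unadjusted p under 0.05, Six4 (-0.57 ± 0.19, adjusted p = 0.21). In the same arrays Cyp26a1 was at 6.15 and 6.17 in IP RNA at time 0 and at 9.88 and 9.97 at 4h.

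The relatives of the 5 genes were measured by family, in lists that leave out the 5 themselves. Over the Stra8 IP course, where 10.8% of all genes were called, 14 of 66 listed genes were called, 9 higher and 5 lower. These 66 are called relatives here, but not all are of a family of the 5. They include 15 CTCF and cohesin genes, of which 5 were called higher. They also include 2 genes with promoters that CTCFL binds, and 2 of these 2 were called higher. The count of 14 is therefore not a share of gene families alone. Of 14 T-box genes measured, 1 rose and 3 fell, with a median largest difference of -0.24 beside -0.08 for all genes. Tbx22, a T-box gene known from palate formation, rose by 1.44 ± 0.32 at 4d (adjusted p for the course 0.000389), from 6.56 and 6.76 at time 0 to 7.84 and 8.37. In the Ngn3 line Tbx22 was lower in IP than in total RNA (-1.53 ± 0.22, limma's adjusted p = 6.12e-08). The mean of the Sertoli markers in Stra8 IP RNA was 9.75 at time 0 and 10.31 at 4d, with 1 array at 10.81. At 8d it was 9.06, and Tbx22 differed from time 0 by 1.01 ± 0.32. The part of Sertoli cell RNA in the rise was not tested. Eomes, which marks a subset of undifferentiated spermatogonia, fell by 1.41 ± 0.17 at 4d (9.72e-13), Tbx3 by 1.50 ± 0.13 at 6d (3.27e-15) and Tbx20 by 1.55 ± 0.19 at 8d (5.97e-08). For Eomes the difference at 12h was -1.02 ± 0.17, and 12h is also the first labelled time at which Six4 was more than 2-fold lower. Their later courses were unlike. Eomes was not called at 24h or 48h, while Six4 differed from time 0 by -2.19 and -1.56 at these times.

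Of the 5 other Dlx genes, 0 were called and 3 had an unadjusted p under 0.05, with a median of -0.25. Dlx2, the neighbour of Dlx1 on chromosome 2, was at 7.85 and 8.06 at time 0 and at 8.62 and 8.81 at 48h, a difference of 0.76 ± 0.18 (adjusted p = 0.00015), under 2-fold at the time Dlx1 was highest. Of 10 genes of the sine oculis, Eya and Dach families, whose products act in common complexes, Eya1 fell, by 1.20 ± 0.19 at 6d (1.55e-05), and 0 rose, with a median of -0.22. Eya1 also fell in Stra8 total RNA (by 1.57 ± 0.17 at 6d, 3.54e-11), in Amh total RNA (by 1.47 ± 0.19 at 6d, 3.38e-08) and in Amh IP RNA (by 2.04 ± 0.19 at 8d, 4.26e-14). Of 20 paired-like homeobox genes measured of 27 listed, Dmbx1 rose by 1.13 ± 0.26 at 8d (0.00117) and Prrx2 fell by 1.24 ± 0.15 at 6d (6.05e-09), with a median of -0.17.

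Of 15 CTCF and cohesin genes, 5 rose in Stra8 IP RNA and 0 fell over the course, with a median of 0.44. Rec8, the meiotic kleisin of cohesin, rose by 2.14 ± 0.23 at 6d (5.62e-12), from 9.12 and 9.22 at time 0 to 11.23 and 11.39, and was at 9.20 and 9.23 at 8d, so that its level, like that of Ctcfl, was high at 6d and lower at 8d. It also had a smaller high at 12h, up to 10.12, where Ctcfl had none. The meiotic subunits Smc1b (1.54 ± 0.37 at 8d, 0.00193), Rad21l (1.31 ± 0.29 at 6d, 3.16e-09) and Stag3 (1.05 ± 0.24 at 6d, 5.01e-06) also rose, as did Pds5a (1.01 ± 0.12 at 6d, 4.25e-10), which regulates cohesin on chromatin. Before its rise Rad21l was lower at 4d, with a difference of -1.01 ± 0.29. Rad21l, Rec8, Smc1b and Stag3 rose in both total RNA courses as well. They also rose in Amh IP RNA, all at 8d (Smc1b by 2.19 ± 0.37, adjusted p = 8.38e-08, Rec8 by 1.41 ± 0.23, 1.3e-07, Stag3 by 1.32 ± 0.24, 4.89e-11, and Rad21l by 1.08 ± 0.29, 2.7e-05). Averaged over times, Smc1b (-1.74), Rad21l (-1.28) and Stag3 (-2.18) were called lower in Amh IP than in Amh total RNA, and Rec8 was not called. The mean of the germ cell markers in Amh IP RNA was 8.57 at time 0 and 9.36 at 8d. The part of germ cell RNA in these rises was not tested. In the same fraction Nipbl, which loads cohesin, fell by 1.17 ± 0.24 (2.88e-06), a value that rests on the doubtful arrays labelled 4h. Rec8 and Smc1b are also in the list of meiotic entry markers above.

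Gal3st1 and Prss50 have promoters that CTCFL is known to bind in testis. Both were measured and both rose in Stra8 IP RNA. Prss50 was at 7.70 and 9.46 at time 0, at 12.33 and 12.56 at 6d and at 12.44 and 12.59 at 8d, a rise of 3.93 ± 0.43 at 8d (adjusted p for the course 7.16e-16). Gal3st1, which makes the sulfated glycolipid of spermatocytes, was at 7.39 and 7.61 at time 0, at 8.52 and 8.71 at 6d and at 8.95 and 9.11 at 8d, a rise of 1.53 ± 0.17 at 8d (1.85e-13). Both stayed high at 8d, when Ctcfl was lower than at 6d. In total RNA Prss50 rose in both lines (4.38 ± 0.38 at 6d in Stra8, 6.06e-16, and 4.86 ± 0.43 at 8d in Amh, 1.34e-16), and Gal3st1 was not called in either. Prss50 also rose in Amh IP RNA, by 2.08 ± 0.43 at 8d (8.46e-05). The mean of the germ cell markers in that fraction was 9.36 at 8d beside 8.57 at time 0, and its part in the rises there was not tested.

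The 4 genes most like each member were found by Pearson's r over the 35 group means, which share arrays and processing, so the values are descriptions. For Tbx1 they were Gal (0.941), Spag4 (0.917), Runx3 (0.903) and Ebf3 (0.887), and for Dlx1 Map3k9 (0.939), Lhx8 (0.924), Ccno (0.913) and Doc2a (0.903). For Six4 they were Arhgef15 (0.973), Fbxw13 (0.957), Nr2e1 (0.949) and Nanos3 (0.949), the last a germ cell RNA-binding protein. For Esx1 they were Car15 (0.946), Sema4f (0.938), Morc4 (0.925) and Rhox13 (0.913), which like Esx1 is an X-linked homeobox gene. For Ctcfl they were Nudt17 (0.969), Syp (0.94), Plek2 (0.919) and Slc22a23 (0.915). Over the 27 groups without Stra8 IP RNA, these r lay between 0.846 and 0.971. Among the 5 genes themselves, r was 0.86 for Esx1 with Ctcfl, 0.788 for Tbx1 with Dlx1, 0.676 for Tbx1 with Esx1 and -0.0827 for Tbx1 with Six4.

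The nearest measured genes on either side of the 5, by the RefSeq gene order, were not called in the Stra8 IP course. Fam199x, beside Esx1 on the X chromosome, had the largest difference, 0.99 at 4d (adjusted p = 3.07e-05), just under 2-fold. Gnb1l beside Tbx1 had 0.69 at 48h (0.00564) and Metap1d beside Dlx1 0.46 at 4h (0.00752), while Rbm38 beside Ctcfl had -0.32 at 6d (0.000172) and Six6 beside Six4 0.25 at 48h (0.108).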

How the data were processed

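Per the labels' protocols, an RNeasy kit gave the RNA, and cDNA made with the Ovation V2 system carried biotin from the Encore module. The authors deposited RMA intensity, per the submitters' processing notes, on a linear scale of a 1-colour gene-level array. Software, settings and which arrays were processed together are not stated there. The median of an array lay between 252.6 and 300.5 units and the smallest value was 25.1, and the number of arrays limits the precision. The log2 of each value was taken. Of 28853 probe sets, 21789 were listed with 1 gene in the annotation of the platform, 1621 with several and 5443 were not listed, and only the first were used. Gene numbers matched RefSeq for 99.6%, and 0 symbols changed. For the 999 genes with more than 1 probe set, the one with the highest mean was kept.

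With limma 3.58.1 (R 4.3.3, and data.table in version 1.17.8), one model gave each of 35 groups a mean over 77 arrays (42 residual degrees of freedom), with empirical Bayes moderation and a trend. Tests were two-sided and Benjamini-Hochberg adjusted over all genes. P-values measure the spread between arrays, since separate animals are not stated. Figures were drawn with Python 3.11.15, pandas 2.3.3 and matplotlib 3.10.9. Replicate numbers were taken to pair IP with total RNA where a line had at least 3 such pairs and the deviations of same-numbered arrays from their group means correlated at over 0.1 in all. This held in the Amh line (7 of 7 pairs, 0.121 to 0.572), as a pattern of the data and not of the labels, and not in the Stra8 line (4 of 8). The Ngn3 line had 2 of 2 (0.232 and 0.248), too few pairs for the rule. The main model used no pairs in any line, so its values of IP against total RNA are unpaired. A replicate block entered only as an alternative.

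The 5 genes, the lists and the tests were chosen with earlier results of these data known. Besides the 5, genes are named as the 4 most alike over group means, the nearest measured neighbours, at most 4 relatives per family among those called in Stra8 IP RNA, and markers. Pds5a, Nipbl, Cyp26a1 and the further courses of relatives are named beyond that rule, after their values were seen. The 9 alternatives dropped the fold minimum, dropped the 30% of genes of lowest signal, centred arrays on their medians, quantile normalized them, averaged probe sets of a gene, added the replicate block, fitted the compared groups alone, left out the doubtful Amh arrays (labels 4h and 4d) or left out each array. Leaving out Stra8 total 4h replicates 2 and 3, or 24h replicates 1 and 2, was added after seeing the data.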

Additional observations from a re-analysis of the deposited data

Results flagged for a closer look

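The courses of total RNA from time 0 differed between the Stra8 and the Amh line by limma's F test of the difference for Tbx1 (1.61 higher in the Stra8 line at 4d), Dlx1 (1.08 at 4d) and Six4 (1.12 at 8d). The first pair rests on the Amh arrays labelled 4d, whose Cyp26a1 was high, and the part of their labels in the difference was not tested. For Six4, all arrays of both lines at 8d lay below those of their time 0, and the drop was 1.03 in the Stra8 line and 2.15 in the Amh line. The lines also started at unlike levels. The mean of Six4 was 8.39 at time 0 and 7.37 at 8d in Stra8 total RNA, and 8.97 and 6.83 in Amh total RNA. The part of the time 0 levels in the difference was not tested. None of the 15 groups of 4 arrays, over the 5 genes, held an array that stood apart by Dixon's test. These were Stra8 total RNA at time 0, 24h and 48h for each gene. Smaller groups, Stra8 total RNA at 4h among them, were not tested for outliers.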

How the results depend on the processing

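For the calls of the 5 genes in courses and fractions, 518 of 531 values under alternatives kept their direction and side of the threshold, 10 kept their direction only and 3 changed sign; for single times these were 394, 24 and 2 of 420. With no fold minimum, the count of the 5 genes called went from 0 to 1 in Amh IP RNA, from 0 to 1 in Ngn3 IP RNA, from 3 to 5 in Ngn3 IP against total and from 0 to 5 in Amh IP against total RNA, and relatives called in Stra8 IP RNA from 14 to 42. That is the construction of the alternative, as in the counts over all genes: 13130 in place of 1375 in the Stra8 total course, 10855 in place of 1528 in the Amh total course, 10627 in place of 1520 in the Amh IP course, 410 in place of 62 and 234 in place of 60 in Ngn3 IP and total RNA, 11097 in place of 2578 and 14782 in place of 1005 in Ngn3 and Amh IP against total, 9042 in place of 1965 and 8461 in place of 1854 in Stra8 IP against total at 4h and 8d, 4740 in place of 507 for the difference of courses and 11534 in place of 2155 in the Stra8 IP course. Median centring gave 1 called gene in Ngn3 IP RNA at 4h in place of 0. In the main fit Dlx1 there was at -0.99 ± 0.27 (limma's adjusted p = 0.0366), just short of 2-fold, and the cause was not tested. In Stra8 IP against total RNA at 4h the replicate block and the compared groups alone each gave 1 in place of 2, Tbx1 being lost (-0.97, and -1.44 with adjusted p = 0.303). The numbers were not taken as pairs for the Stra8 line (4 of 8 pairs over 0.1) or the Ngn3 line (2 of 2, too few), and the block changed no other count of the 5 genes. With the Amh arrays of the labels 4h and 4d left out, 1 in place of 3 was called in the difference of courses, with 222 in place of 507 of all genes; for Tbx1 (-0.77) and Dlx1 (-0.65) the largest difference then lay at 24h, a time whose arrays were all kept. Without Stra8 total 24h replicates 1 and 2, 1004 in place of 507 of all genes were called in the difference of courses; the cause was not tested. Without Stra8 total 4h replicates 2 and 3, which leaves 1 array, Tbx1 at 4h changed sign in IP against total RNA (0.25) and against time 0 (-0.18), as did Esx1 against time 0 (-0.23), and 3639 in place of 1965 of all genes were called in IP against total RNA at 4h. Leaving out 1 array at a time, the 5 genes called ranged from 4 to 5 in the Stra8 total course, 5 to 5 in the Amh total course, 0 to 0 in Amh IP, 0 to 1 in Ngn3 IP, 0 to 0 in Ngn3 total, 3 to 3 and 0 to 0 in Ngn3 and Amh IP against total, 1 to 3 and 2 to 4 in Stra8 IP against total at 4h and 8d, and 2 to 3 in the difference of courses, with 13 to 15 relatives. The count of 1 in Ngn3 IP RNA came without its time 0 replicate 2, the 1 at 4h without Stra8 total 4h replicate 3, and the 2 at 8d without Stra8 IP 8d replicate 2. Groups of 2 arrays limit what smaller differences could be seen.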
